A study of Danio rerio with 4 samples.

Results

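Nucleotide excision repair was followed through 10 genes, xpa, xpc, ddb1, ddb2, ercc1, ercc2, ercc3, ercc4, ercc5 and ercc6, in whole zebrafish embryos with and without mdm2. They were chosen by gene symbol with earlier results of these data known, as were the gene lists used below. Each of the 10 symbols matched 1 Ensembl identifier among the 32057 in the expression table. Poly-A RNA was sequenced in 4 libraries. Of these, 2 were of quadruple mutants (mdm2-/-; puma-/-; noxa-/-; p21-/-) and 2 were of their siblings (mdm2+/- or mdm2+/+, likewise puma-/-; noxa-/-; p21-/-). Mdm2 marks p53 for degradation, p21 is a p53-induced inhibitor of cyclin-dependent kinases, and puma and noxa are p53 targets that promote apoptosis. All embryos were therefore homozygous mutant for puma, noxa and p21, and the sibling libraries may hold embryos with 1 or 2 intact mdm2 copies. The titles describe mutant embryos as abnormal and sibling embryos as normal, and this description cannot be told apart from genotype. The age is 18 hours post-fertilization by the titles but 30 by the tissue label. The labels do not say whether replicate libraries are from separate clutches, and p-values cover no more than the spread among these 4 libraries, which may be technical.

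Nucleotide excision repair removes bulky lesions that distort the DNA helix, such as those made by ultraviolet light, by cutting out a short stretch of the damaged strand and copying the intact one. Damage is found either anywhere in the genome, by XPC and the DDB1-DDB2 complex, or where it stalls RNA polymerase II, through ERCC6 (CSB). Both routes pass to the helicases ERCC3 (XPB) and ERCC2 (XPD) of the transcription factor TFIIH, to XPA, and to the nucleases ERCC5 (XPG) and ERCC4-ERCC1 (XPF-ERCC1), before a replication-type polymerase and a ligase fill the gap. These roles are known mainly from human and yeast proteins, and in mammals XPC and DDB2 are transcriptional targets of p53. The comparison asked how the zebrafish genes stood in embryos that had lost mdm2.

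Both genes known as p53 targets in mammals, xpc and ddb2, fell in the quadruple mutants and were at 42.3% and 46.5% of their sibling means. The genes ddb1, ercc1 and ercc2 fell as well and stood between 63.1% and 65.1% of the sibling mean. ercc4 was the single gene of the 10 that rose, to 128% of the sibling mean, and its call was the least firm. The genes xpa, ercc3, ercc5 and ercc6 did not pass the test. The test was limma on log2(TPM + 1), where TPM is a library-scaled transcript level corrected for transcript length. It was fitted to all 16172 genes that reached 1 TPM in 2 or more libraries, and a gene was called at a Benjamini-Hochberg adjusted p under 0.05. All 10 repair genes passed that filter. Among the 16172 genes, 37.7% fell and 28.0% rose in the same test. Log2 changes are quadruple mutant minus sibling and understate the change of low genes.

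**Figure D1:**
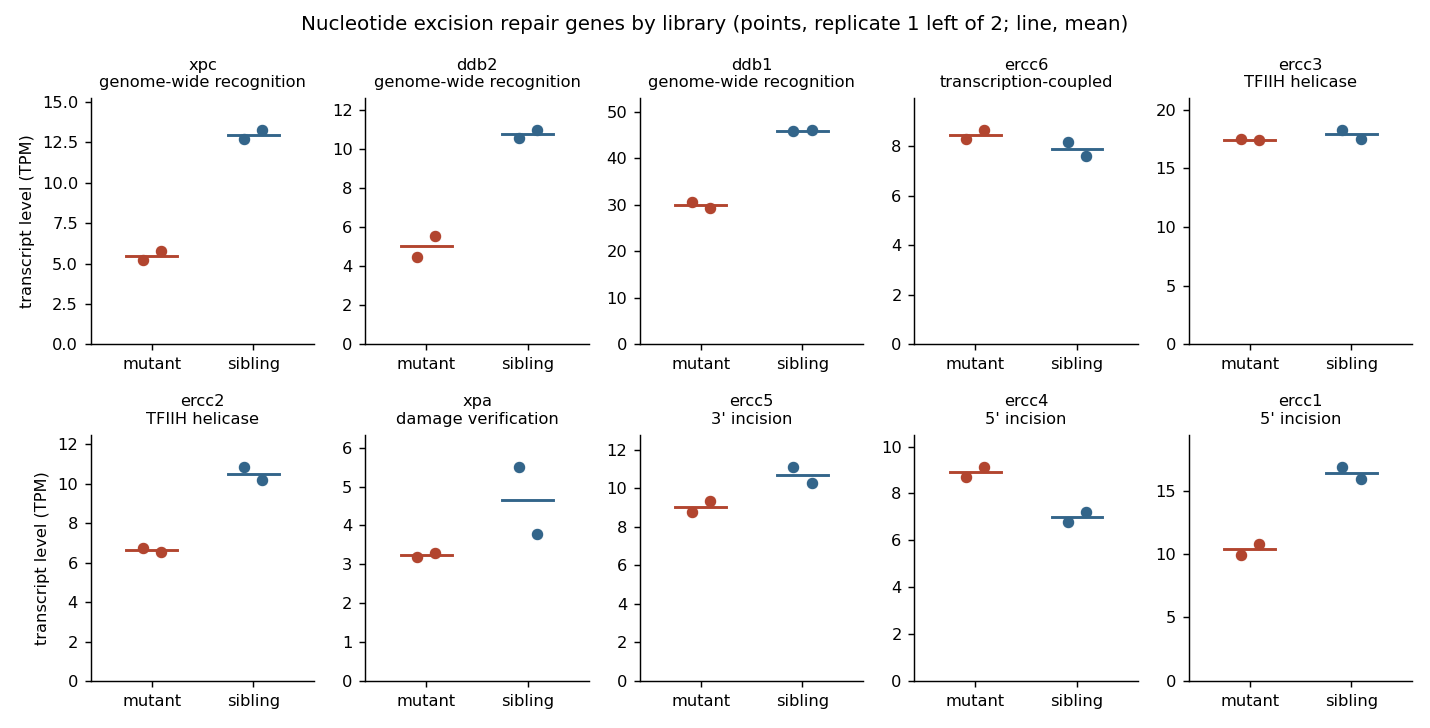
Transcript level (TPM, vertical axes from 0) of the 10 repair genes, with the quadruple mutants left of the siblings in each panel. Points are single libraries and lines are means of 2; xpc and ddb2 stood between 4.46 and 5.75 TPM in the mutants and between 10.55 and 13.27 TPM in sibling embryos, while ercc4 was higher in both mutant libraries than in either sibling library.

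Of the genes that find damage anywhere in the genome, xpc (ENSDARG00000039754), whose product senses the distorted helix, was at 5.24 and 5.75 TPM in mutant embryos versus 12.70 and 13.27 TPM in sibling embryos. Both mutant libraries lay below both sibling libraries, and the gap between genotypes was many times that within either. Its log2 change was -1.11 (SE 0.099, limma adjusted p = 0.000232). ddb2 (ENSDARG00000041140), which binds ultraviolet photoproducts directly, was at 4.46 and 5.54 TPM in mutant embryos versus 10.55 and 10.95 TPM in sibling embryos. Again the genotypes did not overlap, although the mutant libraries differed by 1.08 TPM from each other. The log2 change of ddb2 was -0.98 (SE 0.123, limma adjusted p = 0.000869), and -1.11 to -0.85 with each library left out in turn. ddb1 (ENSDARG00000074431), the adaptor that joins DDB2 to a CUL4 ubiquitin ligase and serves many other receptors as well, was the most abundant of the 10. It was at 30.59 and 29.26 TPM in mutant embryos versus 45.85 and 46.11 TPM in sibling embryos. The genotypes were apart, and the log2 change was -0.60 (SE 0.066, limma adjusted p = 0.000504).

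ercc6 (ENSDARG00000075612), the remodelling ATPase that starts transcription-coupled repair at a stalled polymerase, was at 8.28 and 8.65 TPM in mutant embryos versus 8.16 and 7.60 TPM in sibling embryos. The nearest mutant and sibling libraries differed by less than the siblings differed from each other. Its log2 change was 0.09 with a 95% interval of -0.15 to 0.33 (limma adjusted p = 0.439).

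Of the TFIIH helicase genes, 1 of 2 fell, beside 37.7% of all tested genes. ercc3 (ENSDARG00000002402), whose ATPase opens DNA at promoters and lesions, was at 17.48 and 17.39 TPM in mutant embryos versus 18.26 and 17.53 TPM in sibling embryos. Its log2 change was -0.04 with a 95% interval of -0.23 to 0.16 (limma adjusted p = 0.709), and it turned to 0.08 when libraries were rescaled to a common median ratio. ercc2 (ENSDARG00000021985), the helicase that scans the opened strand for damage, was at 6.75 and 6.53 TPM in mutant embryos versus 10.87 and 10.18 TPM in sibling embryos. The genotypes were well apart for ercc2, and its log2 change was -0.59 (SE 0.097, limma adjusted p = 0.0025).

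xpa (ENSDARG00000038114), which verifies the lesion and positions the nucleases, was the lowest of the 10 in both genotypes. It was at 3.20 and 3.30 TPM in mutant embryos versus 5.51 and 3.79 TPM in sibling embryos, so that the sibling libraries differed by 1.72 TPM. Its log2 change of -0.39 (95% interval -0.81 to 0.02) did not pass (limma adjusted p = 0.0843). The value rested on which sibling was kept, at -0.17 without sibling replicate 1 and -0.62 without sibling replicate 2, where the limma adjusted p was 0.0286.

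Of the 3 nuclease genes, 1 fell and 1 rose, beside 37.7% and 28.0% of all tested genes. ercc5 (ENSDARG00000023678), which cuts on the 3′ side of the lesion, was at 8.78 and 9.32 TPM in mutant embryos versus 11.12 and 10.29 TPM in sibling embryos (log2 change -0.22, 95% interval -0.46 to 0.02, limma adjusted p = 0.0897). ERCC4 and ERCC1 form the nuclease that cuts on the 5′ side, ERCC4 carrying the active site and ERCC1 holding the DNA. ercc1 (ENSDARG00000031680) was at 9.96 and 10.83 TPM in mutant embryos versus 16.88 and 15.91 TPM in sibling embryos, and its log2 change was -0.61 (SE 0.091, limma adjusted p = 0.00174). ercc4 (ENSDARG00000014161) was at 8.72 and 9.14 TPM in mutant embryos versus 6.78 and 7.19 TPM in sibling embryos, and its log2 change was 0.31 (SE 0.098, limma adjusted p = 0.0307). Partner genes of 1 enzyme were thus called in opposite directions. The call of ercc4 was the least firm of the 6: its limma adjusted p was 0.0758 without mutant replicate 2, 0.166 without sibling replicate 1 and 0.0966 without sibling replicate 2, with log2 changes between 0.28 and 0.35.

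Together, 5 of the 10 genes fell and 1 rose, against 37.7% and 28.0% of all tested genes. The count called in either direction, 6 of 10, stands beside 65.6% of all tested genes, so the share called was near the background. Mutant and sibling libraries did not overlap for any of the 10, with 8 lower and 2 higher in the mutants. That was so for 83.3% of all tested genes, of which 47.5% were lower and 35.8% higher. With 2 libraries a genotype, an exact permutation test reaches no p below 0.333, and the calls use the variance that limma pools over genes. The median log2 change was -0.49 over the 10 genes and -0.10 over all tested genes, and median ratio scaling brought the value for all genes to 0.000443. Under that scaling the median of the 10 was -0.39, and again 5 fell and 1 rose, beside 32.8% lower and 32.7% higher of all tested genes. Among all tested genes, 9.09% had a lower change than xpc and 12.1% a lower change than ddb2. For ddb1, ercc1 and ercc2 this share was between 24.3% and 25%, and for ercc4 it was 72.2%. Each of the 5 genes that fell also passed under each of the 12 alternative settings tried, with a highest adjusted p of 0.0263, for ercc2.

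**Figure D2:**
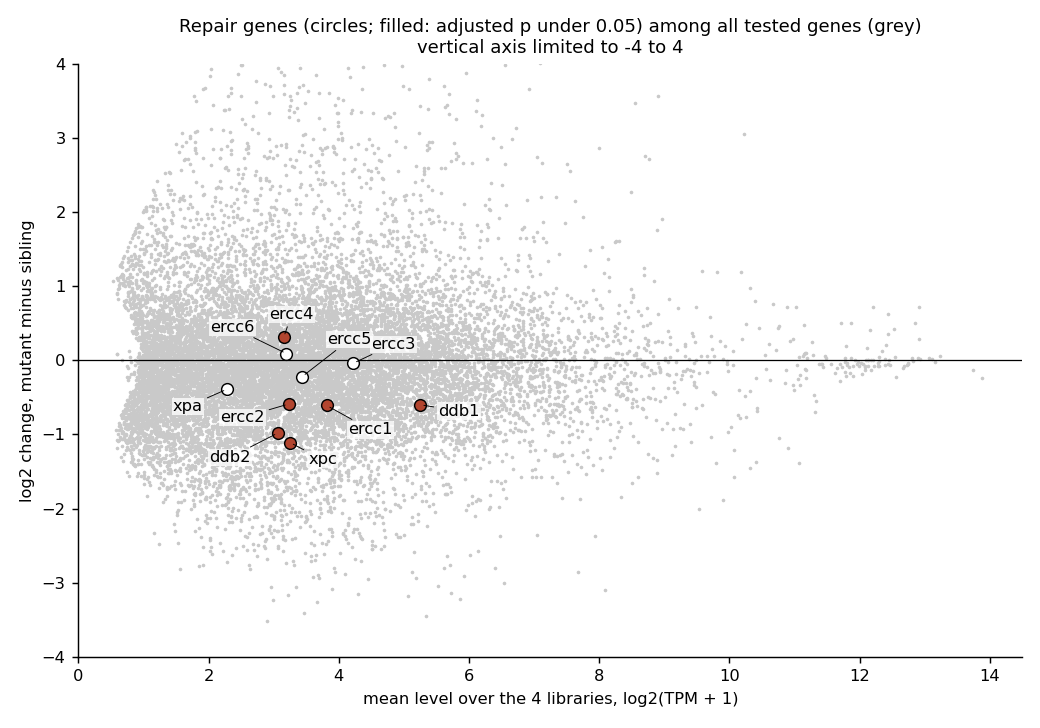
Log2 change (quadruple mutant minus sibling, vertical axis) against mean level (horizontal axis, log2 of TPM + 1) for all 16172 tested genes in grey, with the 10 repair genes as circles, filled where the adjusted p was under 0.05. The repair genes lie between -1.11 and 0.31, within the body of the distribution; 73 genes with changes above 4 are outside the plotted range.

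The order of levels among the 10 genes differed between genotypes. In the mutants, mean levels ran from 29.9 TPM for ddb1 through ercc3 (17.4), ercc1 (10.4), ercc5 (9.05), ercc4 (8.93), ercc6 (8.46), ercc2 (6.64), xpc (5.50) and ddb2 (5.0) to xpa (3.25). There the ranges of ercc5 and ercc4 overlapped, as did those of xpc and ddb2. In the siblings they ran from 46.0 TPM for ddb1 through ercc3 (17.9), ercc1 (16.4), xpc (13.0), ddb2 (10.8), ercc5 (10.7), ercc2 (10.5), ercc6 (7.88) and ercc4 (6.99) to xpa (4.65). Neighbours ddb2 and ercc5, and ercc5 and ercc2, overlapped there. ddb1, ercc3 and ercc1 led in both genotypes and xpa came last in both, whereas xpc stood in place 8 in the mutants against place 4 in the siblings, and ddb2 in place 9 against place 5. Summed over the 10 genes, transcripts came to 103 and 106 TPM in mutant embryos versus 147 and 143 TPM in sibling embryos.

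Ratios of transcript levels within a library do not change when the whole library is scaled by a single factor. Quantile normalization can change them, and they were not taken under it. In all, 6 ratios between repair partners were compared. The ratio of ercc4 to ercc1 was 0.876 and 0.844 in the mutants against 0.402 and 0.452 in the siblings, a log2 difference of 1.01. Per transcript length, ercc4 was thus nearer in level to ercc1 in both mutant libraries than in either sibling library. The ratio of ercc3 to ercc2 was 2.59 and 2.66 in the mutants against 1.68 and 1.72 in the siblings (log2 difference 0.63). For ddb2 to ddb1 it was 0.146 and 0.189 in the mutants against 0.230 and 0.237 in the siblings (-0.49), but the size depended on the mutant library, at -0.30 without mutant replicate 1 and -0.68 without mutant replicate 2. RAD23B stabilises the damage sensor XPC, and the ratio of xpc to rad23b was 0.0317 and 0.0356 in the mutants against 0.0679 and 0.0672 in the siblings (-1.01). XPA works with the single-strand binding protein RPA, and the ratio of xpa to rpa1 was 0.111 and 0.0937 in the mutants against 0.0393 and 0.0274 in the siblings (1.64). Its size depended on the sibling library, at 1.90 without sibling replicate 1 and 1.38 without sibling replicate 2. In the transcription-coupled branch, ercc6 to ercc8 was 0.274 and 0.294 in the mutants against 0.293 and 0.237 in the siblings (0.11), and the genotypes overlapped. For the other 5 ratios they did not, with an exact 2-sided permutation p of 0.333 each (0.400 adjusted over the 6), the smallest that this design allows; for ercc6 to ercc8 it was 0.667. These sizes depend on nothing being added to the levels. With 5 TPM added before the ratio was taken, the log2 difference was 0.69 for ercc4 to ercc1 and -0.55 for xpc to rad23b. It was 0.39 for ercc3 to ercc2, -0.11 for ddb2 to ddb1 and 0.07 for ercc6 to ercc8. All of these were smaller in size than with nothing added, whereas the difference for xpa to rpa1 was slightly larger.

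**Figure D3:**
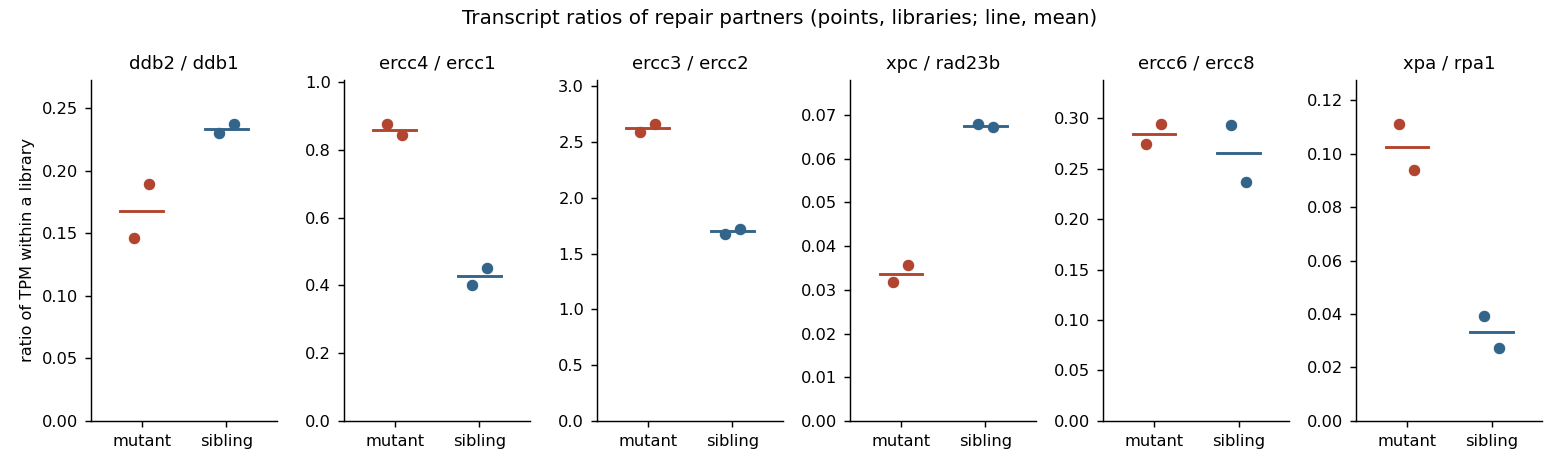
Ratio of TPM of 2 repair partners within each library (vertical axes from 0), with the quadruple mutants left of the siblings; points are libraries and lines are means of 2. The genotypes are apart for every pair shown except ercc6 to ercc8, and ercc4 to ercc1 shows 0.860 on average in the mutants and 0.427 in the siblings.

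The rest of the pathway was taken from 5 lists by role, with 41 symbols of which 39 matched an identifier, and all 39 were tested. Of these, 29 fell, 4 rose and 6 did not pass, beside the 37.7% and 28.0% of all tested genes. Under median ratio scaling 26 fell and 4 rose, beside 32.8% and 32.7% of all tested genes. Among 18 genes that act before synthesis, 9 fell, 3 rose and 6 did not pass, with a median log2 change of -0.20. Among 21 genes of single-strand binding, gap filling and ligation, 20 fell and 1 rose, with a median of -1.96. Many of those genes also act in DNA replication, and the difference between the medians was not tested. In the 21, mutant library 2 lay above mutant library 1 for 20 genes, with a median difference of 0.24 (log2). For the 10 repair genes it lay above in 7 (median 0.06), and for all 16172 tested genes in 9346 (median 0.04).

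Beside 37.7% lower and 28.0% higher of all tested genes, 3 of 5 other genes of genome-wide recognition fell and 0 rose. They were cetn3, a centrin related to the one in the XPC complex (log2 change -0.86, SE 0.158), rad23b (-0.23, SE 0.055) and the ligase scaffold gene cul4b (-0.27, SE 0.084). rad23b was far more abundant than xpc, at 165.5 and 161.4 TPM in mutant embryos versus 187.1 and 197.4 TPM in sibling embryos. The values of cul4a (-0.08) and the RING subunit gene rbx1 (0.09) did not pass. The count of 3 was 1 under median ratio scaling, where rad23b and cul4b did not pass, beside 32.8% of all tested genes lower. It was 2 without a variance trend, where rad23b did not pass, beside 37.0% lower. The calls of rad23b and cul4b did not hold with every library left out. Their log2 changes then ranged from -0.27 to -0.19 for rad23b and from -0.32 to -0.22 for cul4b. Without mutant replicate 2, rbx1 had a log2 change of 0.19 (limma adjusted p = 0.0143).

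Among 6 genes of transcription-coupled repair, 3 fell and 1 rose, beside 37.7% and 28.0% of all tested genes. xab2, which binds XPA and is also a splicing factor, fell (-0.62, SE 0.074), as did polr2a, the largest subunit of RNA polymerase II (-0.55, SE 0.070), and the elongation factor gene elof1 (-0.74, SE 0.126). uvssa, which brings TFIIH to the stalled polymerase, rose. It was at 5.33 and 6.48 TPM in mutant embryos versus 3.50 and 3.59 TPM in sibling embryos (0.60, SE 0.127, limma adjusted p = 0.0073). Values of ercc8 (0.00, 95% interval -0.22 to 0.22), the partner of ERCC6 in a CUL4 ligase, and of tcea1 (-0.06) did not pass with all 4 libraries. The log2 change of tcea1 was -0.17 without mutant replicate 2.

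Among 7 other TFIIH subunit genes, 3 fell, 2 rose and 2 did not pass. Of all tested genes, 37.7% fell and 28.0% rose, so these counts were near the background. The kinase module of TFIIH was split: the kinase gene cdk7 rose, whereas the cyclin gene ccnh and the assembly factor gene mnat1, named after its values were seen, fell. cdk7 was at 34.1 and 43.5 TPM in mutant embryos versus 25.4 and 23.4 TPM in sibling embryos (0.64, SE 0.124, limma adjusted p = 0.0051). ccnh was at 6.25 and 6.48 TPM in mutant embryos versus 13.45 and 11.56 TPM in sibling embryos (-0.87, SE 0.109, limma adjusted p = 0.000855). mnat1 was at 6.5 and 6.67 TPM in mutant embryos versus 9.41 and 9.97 TPM in sibling embryos (-0.49, SE 0.097). In the core, gtf2h5, the small subunit that stabilises TFIIH and stimulates the ERCC3 ATPase, rose (0.44, SE 0.091), gtf2h3 fell (-0.53, SE 0.085), and gtf2h1 (-0.12) and gtf2h4 (-0.16) did not pass. gtf2h4 had an adjusted p of 0.0275 in limma without mutant replicate 2. Together with ercc2 and ercc3 these made 9 TFIIH subunit genes (gtf2h2 was not analysed here), and their transcripts summed to 200 and 215 TPM in mutant embryos versus 200 and 204 TPM in sibling embryos.

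**Figure D4:**
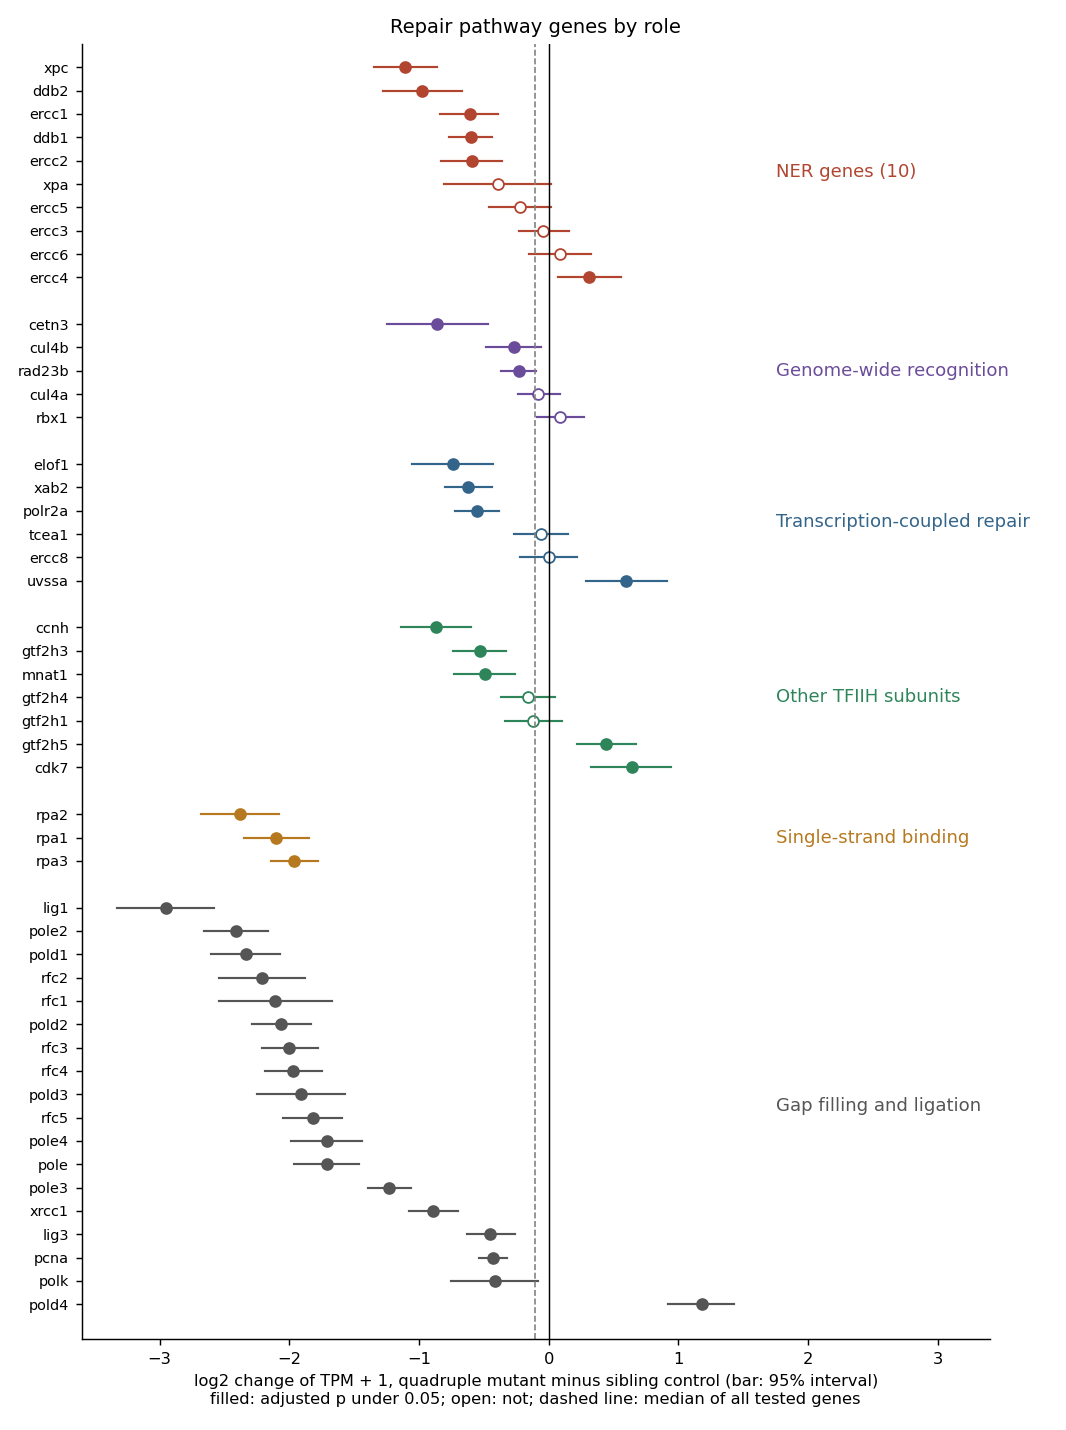
Log2 change (quadruple mutant minus sibling, horizontal axis) of the 10 repair genes and of 39 other genes of the pathway grouped by role, with 95% intervals from limma; filled points had an adjusted p under 0.05. The single-strand binding and gap-filling genes reach -2.95, with pold4 alone on the right at 1.18, while the other genes that act before synthesis lie between -0.87 and 0.64 and the 10 repair genes between -1.11 and 0.31.

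All 3 subunit genes of RPA, which coats the exposed single strand, fell. rpa1 was at 28.7 and 35.2 TPM in mutant embryos versus 140.3 and 138.6 TPM in sibling embryos (-2.10, SE 0.101), and rpa2 (-2.38, SE 0.122) and rpa3 (-1.96, SE 0.074) were similar. Against 37.7% of all tested genes, 17 of 18 gap-filling and ligation genes fell. They included the polymerase epsilon subunit gene pole2 (-2.41, SE 0.103), the clamp loader genes rfc3 (-2.0, SE 0.089) and rfc4 (-1.97, SE 0.090), and, named after its values were seen, the replicative ligase gene lig1 (-2.95, SE 0.151). lig1 was at 5.73 and 8.21 TPM in mutant embryos versus 61.3 and 58.8 TPM in sibling embryos. lig3 and xrcc1, the ligase pair that also seals repair gaps outside S phase and was likewise named after the values were seen, fell by 0.45 (SE 0.075) and 0.89 (SE 0.077) on the log2 scale. Against the rest, pold4, the smallest subunit of polymerase delta, rose to 89.8 and 110.0 TPM in mutant embryos, versus 44.5 and 42.3 TPM in sibling embryos (1.18, SE 0.104, limma adjusted p = 0.00022).

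Other repair genes reported as p53 targets in mammals were set beside xpc and ddb2. Of all tested genes, 28.0% rose and 37.7% fell, so that 65.6% were called in either direction. Of 6 identifiers in this list, 5 were tested, of which 3 rose and 2 fell, with a median log2 change of 0.31. The risers were both copies of gadd45a (ENSDARG00000043581, 6.09; ENSDARG00000104571, 0.50) and rrm2b, a p53-inducible subunit of ribonucleotide reductase. rrm2b was at 195 and 214 TPM in mutant embryos versus 163.4 and 165.7 TPM in sibling embryos (0.31, SE 0.062, limma adjusted p = 0.00573), with a limma adjusted p of 0.0513 without sibling replicate 1. The Fanconi anaemia gene fancc (-2.13, SE 0.140) and the sliding clamp gene pcna (-0.43, SE 0.044), which is also in the gap-filling list, fell. The translesion polymerase gene polh was below the filter, at 0.23 and 0.21 TPM in mutant embryos versus 0.99 and 0.67 TPM in sibling embryos. Without a filter all 6 identifiers were tested, 3 rose and 3 fell, and the median log2 change turned to -0.06. Under that setting 18.8% of all tested genes rose and 26.1% fell. mdm2 itself was at 1634 and 1819 TPM in mutant embryos versus 81.9 and 85.1 TPM in sibling embryos; gene-level values count transcripts of mutant alleles too and do not check the genotype.

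Fish also reverse ultraviolet lesions directly with light-driven photolyases. The gene of the cyclobutane dimer photolyase, cpdp, was at 17.0 and 17.6 TPM in mutant embryos versus 19.7 and 19.4 TPM in sibling embryos and did not pass (-0.17, 95% interval -0.35 to 0.02, limma adjusted p = 0.104). cry5, the (6-4) photolyase gene, fell to 0.83 and 0.99 TPM in mutant embryos, versus 2.71 and 2.93 TPM in sibling embryos (-1.0, SE 0.128). cry-dash fell to 7.57 and 6.55 TPM in mutant embryos, versus 10.28 and 9.97 TPM in sibling embryos (-0.47, SE 0.107). The call of cry5 rested on having 2 sibling libraries, since only they reached the filter and with either one left out cry5 was not tested. cry-dash did not pass without sibling replicate 1 (log2 change -0.45) but did without sibling replicate 2 (-0.49).

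Markers of several tissues moved with genotype, and their part in the results was not tested. By the same test, 37.7% of all tested genes fell and 28.0% rose. In whole embryos, fewer cells of a type and less RNA per cell cannot be told apart. The 3 muscle markers (myod1, myog, actc1b) fell and summed to 605 and 565 TPM in mutant embryos versus 907 and 932 TPM in sibling embryos. The 3 neural markers (sox2, elavl3, neurog1) fell and summed to 64.9 and 75 TPM in mutant embryos versus 148 and 144 TPM in sibling embryos. The hatching gland markers he1.1 and ctslb rose and summed to 2755 and 2841 TPM in mutant embryos versus 1679 and 1757 TPM in sibling embryos, and 1 of 2 skin markers, krt4, rose (8929 and 8462 TPM with krt5 in the mutants, against 7055 and 7250 TPM in sibling embryos). Notochord markers did not pass in any of 3 identifiers of tbxta and col2a1, which summed to 225 and 214 TPM in the mutants and 229 and 225 TPM in sibling embryos. tbxta, at 0.19 (limma adjusted p = 0.0721), passed as higher under median ratio scaling, quantile normalization and without mutant replicate 1, where 1 copy of col2a1 passed as lower. Under median ratio scaling krt5 passed as higher too. Of blood and vessel markers, gata1a fell and kdrl did not pass. The pigment markers dct and pmela fell, pmela not without sibling replicate 2, while tyr was not tested. dct was at 0.60 and 0.23 TPM in mutant embryos versus 2.45 and 2.51 TPM in sibling embryos. It thus reached the filter only in the siblings, and was not tested with either sibling library left out or with a filter of 5 TPM. The blood and vessel pair and the pigment markers, tyr included, summed to at most 6.81 TPM per list in the mutants and 12.2 TPM in sibling embryos. None of the markers was at 0 in any library. Between 15242 and 15584 genes reached 1 TPM per library.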

How the data were processed

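Poly-A selected RNA of whole embryos was sequenced in paired 150 bp reads. The authors deposited TPM values per Ensembl gene, with each library summing to the same total within rounding. Per the submitters' processing notes the build was GRCz11 and the tools included RSEM 1.3.3, STAR 2.7.3a and HTSeq 0.12.3. The tool that made the TPM, its annotation and its use of strand are not given in the sources used here. Since TPM keeps no depth, depth is unknown and no counting interval was computed. A rise of abundant genes lowers the TPM of others. The rescaled alternatives show how far calls depend on scaling. They presuppose a shared median ratio or distribution between libraries, so they cannot recover the true shift.

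The group and replicate number of each library came from sample titles, which do not spell out the genotypes in full. Symbols were matched ignoring case to a gene name table (28988 identifiers named), then without the zebrafish copy letter. The main model was limma 3.58.1 (R 4.3.3) on log2(TPM + 1) values, using a variance trend and 2 libraries per genotype. It was checked on simulated data in which far fewer genes changed than were called here, so the check does not cover so broad a change. Named genes were the 10 repair genes, mdm2, photolyases, up to 3 genes per list with the lowest p, and genes called against their list's majority; others were named after their values were seen. The repair genes and lists were chosen with earlier results of these data known. Some pathway genes are not reported here. Summaries used Python 3.11.15, numpy 2.4.6 and pandas 2.3.3, and figures matplotlib 3.10.9. Settings varied 1 at a time were the pseudocount (0.1 and 5 TPM), the filter (none and 5 TPM), scaling (median ratio and quantile), the variance trend (none), a replicate block, and each library left out.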

Additional observations from a re-analysis of the deposited data

How the results depend on the processing

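In the alternatives that kept all 4 libraries, 5 of the 10 repair genes fell. The number that rose was 1, or 0 with a replicate block, where the limma adjusted p of ercc4 was 0.0501. With each library left out, the log2 change was 0.28 to 0.35 for ercc4, whose call then did not always hold. For xpa it was -0.62 to -0.17. Same-numbered libraries deviated together only weakly (Pearson's r = 0.0488 across genes), which does not settle whether they were paired. The block changed no other call among the 10 repair genes or the other pathway genes. With a genotype reduced to 1 library, that library was assumed to vary like the others. With a filter of 5 TPM, 9 of the 10 repair genes, all but xpa, and 38 of the 39 other pathway genes were tested. Across the settings that kept all 4 libraries, 26.1% to 40.7% of all tested genes fell and 18.8% to 32.7% rose. In the same settings, 26 to 29 of the 39 other genes fell and 4 rose, with 38 of them tested under the filter of 5 TPM.

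Signs turned in values close to 0. Median ratio scaling gave 0.08 for ercc3, 0.04 for cul4a, 0.12 for ercc8 and 0.06 for tcea1. With each library left out, the ranges were -0.00 to 0.19 for rbx1, -0.10 to 0.10 for ercc8, -0.17 to 0.04 for tcea1 and -0.05 to 0.26 for the ratio of ercc6 to ercc8. Beyond median ratio scaling, which shifts every gene, the cause was not tested. Depth is unknown, so how far counting error limits the lower genes, such as xpa, cannot be given.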

Other observations

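Genes whose pattern over the 4 libraries was closest to xpc and ddb2 were sought among 9553 other tested genes with a symbol and a mean of at least 5 TPM, by the Euclidean distance between centred log2(TPM + 1) values. The nearest to xpc were rgmd (distance 0.012, log2 change -1.10), dhx37 (0.021, -1.12) and fbxo3 (0.023, -1.09). The nearest to ddb2 were nol7 (0.023, -0.98), atf7ip (0.034, -0.96) and cyth1 (ENSDARG00000021488; 0.035, -0.95). A distance under 0.25 was reached by 593 genes for xpc and by 678 for ddb2, so that such patterns were common among these 4 libraries.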
